A study of Mus musculus with 12 samples.

Results

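The pre-mRNA splicing machinery was followed through 50 mouse genes in B220-selected bone marrow cells with and without a Myc transgene. Members were the genes whose probe sets carry a single symbol beginning with Srsf and a digit, Snrp, Hnrnp, Sf3a or Sf3b, together with Prmt5, Wdr77 and Clns1a. They took up 147 of the 45101 probe sets on the array and 50 of 18194 genes. The probe set with the highest mean stood for each gene, and 48 of the 50, among 10287 genes in all, lay above a log2 intensity of 4 on at least 3 arrays and were tested. The 2 left out were Snrpn and Srsf12. By family, 3 of 3 genes of the PRMT5 complex, 8 of 9 Sm and other snRNP genes, 9 of 9 SF3A and SF3B genes, 9 of 10 SR genes and 19 of 19 hnRNP genes were tested.

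The groups, each of 3 arrays, were precancerous mice with both the Eμ-Myc and the Eµ-TTP-1 transgene (Myc TTP), precancerous mice with Eμ-Myc alone (Myc), mice with Eµ-TTP-1 alone (TTP) and wild-type mice. All were littermates aged 4 to 6 weeks on a background that was 94% C57BL/6, and their cells were taken from bone marrow with magnetic beads against CD45R (B220), a surface protein of the B lineage. The Eμ element is the enhancer of the immunoglobulin heavy chain locus, so the transgenes are driven mainly in B-lineage cells, and Eμ-Myc mice develop B-cell lymphoma. TTP, encoded by Zfp36, is an RNA-binding protein that promotes the decay of mRNAs. All 11 listed B lineage markers with a probe set lay above the floor of log2 4 on every array. So did all 10 plasmacytoid dendritic markers, 9 of 13 granulocyte, 5 of 12 erythroid, 5 of 11 monocyte and macrophage and 2 of 11 NK and T cell markers. Samples of a group are labelled as biological replicates, with no word on how many animals gave each.

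Introns are removed by the spliceosome, which is built from small nuclear ribonucleoprotein particles (snRNPs) and many accessory proteins. In most snRNPs a ring of Sm proteins surrounds the small nuclear RNA. Before the ring is assembled in the cytoplasm, pICln (Clns1a) holds Sm proteins for the methyltransferase PRMT5 and its partner WDR77, which dimethylate arginines in their tails, and the SMN complex then loads the ring onto RNA. SF3A and SF3B are parts of the U2 snRNP that settle it on the branch site of an intron. SR proteins bind exons and promote their use, whereas hnRNP proteins coat nascent RNA and often repress splice sites. In mouse Eμ-Myc B cells, PRMT5 and core splicing are known from the literature as requirements of lymphoma growth.

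A pair of arrays went against their labels in the signal of Myc itself. Log2 intensity of Myc was 11.82, 12.73 and 13.37 on the Myc TTP arrays and 13.71, 13.92 and 12.99 on the Myc arrays, against 10.05, 10.39 and 13.47 on the arrays labelled TTP and 9.65, 9.68 and 12.65 on those labelled wild type. The arrays labelled TTP 3 and WT 3 thus lay within the Myc-labelled range. Results below use all arrays unless stated, and member counts and some genes are also given without TTP 3 and WT 3. Marker lists, further splicing lists and probe set counts are given with all arrays only. Signal of Xist, transcribed in female cells, stood beside Y-linked signal on 4 arrays, which are the 4 numbered 3; 7 arrays had Xist alone and 1 had Y-linked signal alone. Zfp36 was not higher with the TTP label, at a mean of 8.42 ± 0.87 on the Myc TTP arrays against 9.54 ± 0.40 on the Myc arrays, and 9.85 ± 0.06 on the TTP arrays against 10.11 ± 0.51 on the wild-type arrays (SD, n = 3 each). Whether its one probe set detects the transgene is not known here.

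Promoters of 3 members called higher below are shown because they hold CACGTG, the E-box letters that MYC and MAX are known to bind. They run from 250 bases before to 50 after a RefSeq transcription start (GRCm38.p6), 5′ to 3′ on the gene's strand, with CACGTG in capitals. Wdr77 lies at chr3:105959248-105959547 on the plus strand, Clns1a at chr7:97696407-97696706 on the plus strand and Hnrnpm at chr17:33685409-33685708 on the minus strand.
Wdr77: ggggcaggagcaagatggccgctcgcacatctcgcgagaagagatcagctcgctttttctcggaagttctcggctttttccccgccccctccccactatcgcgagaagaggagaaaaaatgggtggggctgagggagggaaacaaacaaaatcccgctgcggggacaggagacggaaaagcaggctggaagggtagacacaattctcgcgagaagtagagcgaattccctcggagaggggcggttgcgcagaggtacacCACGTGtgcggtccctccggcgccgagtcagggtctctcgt
Clns1a: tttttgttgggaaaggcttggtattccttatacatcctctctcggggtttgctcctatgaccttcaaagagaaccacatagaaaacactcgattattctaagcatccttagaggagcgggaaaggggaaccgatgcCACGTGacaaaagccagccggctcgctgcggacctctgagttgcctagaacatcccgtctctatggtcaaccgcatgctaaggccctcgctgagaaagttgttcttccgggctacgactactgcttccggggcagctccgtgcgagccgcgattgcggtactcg
Hnrnpm: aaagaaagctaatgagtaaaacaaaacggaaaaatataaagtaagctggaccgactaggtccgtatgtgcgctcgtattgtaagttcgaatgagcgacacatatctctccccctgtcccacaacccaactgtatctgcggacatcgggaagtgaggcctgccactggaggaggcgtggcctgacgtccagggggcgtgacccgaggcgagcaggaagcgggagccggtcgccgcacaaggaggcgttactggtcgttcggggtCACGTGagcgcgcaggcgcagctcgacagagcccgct

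In the Wdr77 and Hnrnpm promoters the E-box lies shortly after the annotated start, and in Clns1a it lies before it. RefSeq promoters matched 45 of the 50 members, 61 promoters in all. CACGTG, which reads the same on both strands, was in 3 of the 16 promoters of members called higher (18.8%), in 13.9% of the promoters of all genes called higher, in 10.4% of those of all tested genes and in 7.15% of all 32851 promoters of this length. Among the other members it was in 3 of 45 promoters, those of Hnrnpd, Hnrnpf and Hnrnph2. The variant CACGCG, on either strand, was in 5 of 16 promoters of members called higher, in 23.2% of those of all genes called higher, in 17.2% of those of all tested genes and in 9.27% of all promoters. The GC box letters GGGCGG, on either strand, were in 8 of the 16 promoters of members called higher (50%), in 65% of those of all genes called higher, in 62.6% of those of all tested genes and in 35.7% of all promoters. A match of letters is a description and shows no binding.

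Splicing factor genes with higher signal on Myc-labelled arrays lay mostly in the families that build the core snRNPs. Over both backgrounds together (the mean of Myc minus wild type and Myc TTP minus TTP, here the Myc effect), 19 members rose and 1 fell in limma's moderated test (adjusted p under 0.05, Benjamini-Hochberg, over the 10287 genes). The rises were 39.6% of the 48 tested members, against 18.7% of all tested genes called higher. The single fall was 2.08% of the members, against 24.6% of all tested genes called lower. Counted in either direction the shares were close, 41.7% of the members and 43.2% of all tested genes. The median log2 difference of the members was 0.13, beside -0.06 over all tested genes. It was 0.22 with the arrays set to a common median (0.04 over all tested genes), 0.28 with the probe set of largest SD and 0.21 with the mean of all probe sets of a gene. Differences were positive for 35 of the 48.

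By family, all 3 PRMT5 complex genes rose (median log2 difference 0.68). Of the Sm and snRNP genes 6 of 8 rose (median 0.41), and of the SF3A and SF3B genes 6 of 9 (median 0.47). One of 9 SR genes rose (median 0.09). The SR median was 0.19 with the arrays set to a common median, 0.23 with the probe set of largest SD and 0.15 with the mean of all probe sets. Of the 19 hnRNP genes 3 rose and 1 fell (median -0.01), and in the same 3 settings the hnRNP median was 0.09, 0.02 and 0.06. These are counts of the families beside each other, and no test between families was made. In bulk RNA, fewer cells of a type and less RNA per cell cannot be told apart.

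**Figure D1:**
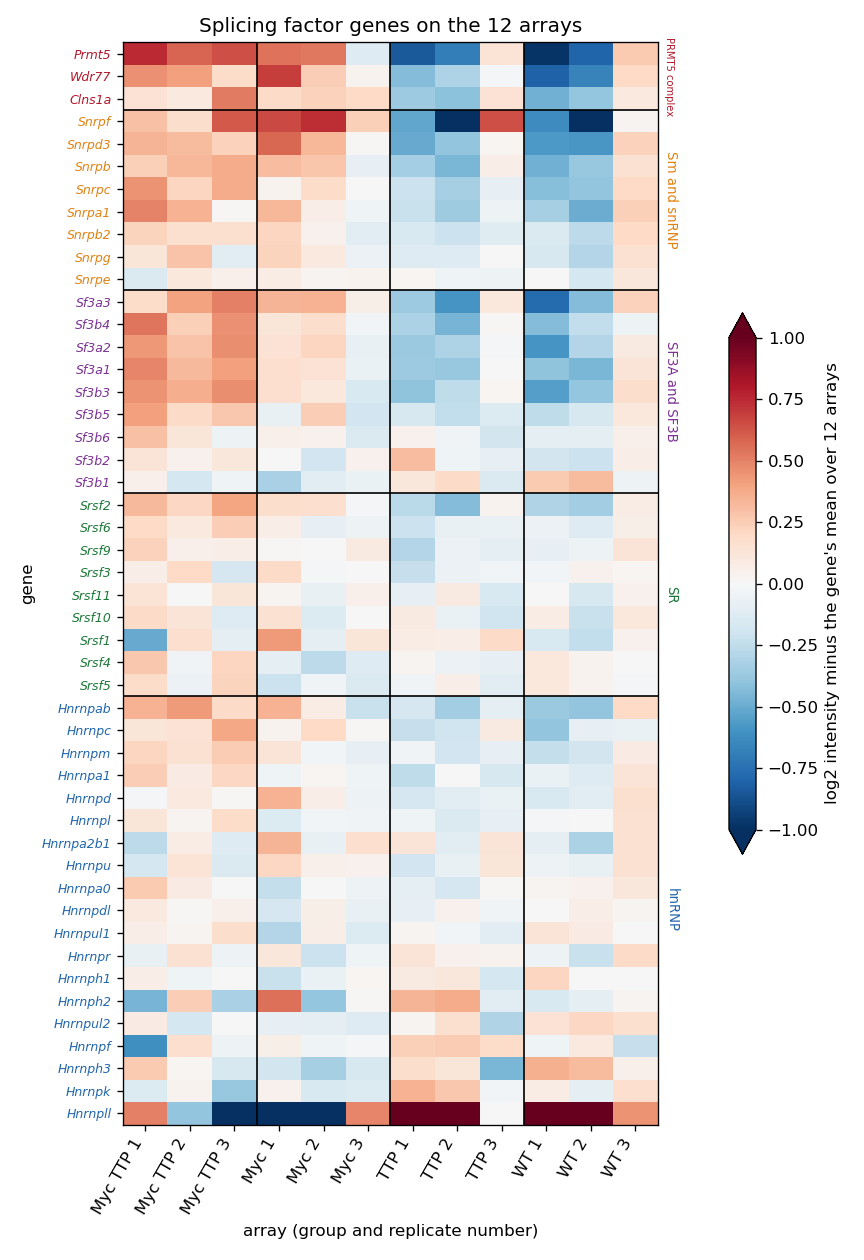
Log2 intensity of the 48 tested genes on each of the 12 arrays, minus the gene's mean over the arrays (colour, capped at 1 either way); columns are arrays by group, rows are genes by family and by the size of the Myc effect. Rows of the PRMT5 complex, most Sm genes and most SF3 genes are red on the Myc TTP and Myc arrays and blue on TTP 1, TTP 2, WT 1 and WT 2, with the arrays labelled TTP 3, WT 3 and Myc 3 nearer to the middle, while most SR and hnRNP rows are pale.

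Markers of other bone marrow cells moved with the same contrast. For the Myc effect 13 of 13 granulocyte, 9 of 11 erythroid, 10 of 10 monocyte and macrophage, 10 of 10 plasmacytoid dendritic, 8 of 9 NK and T cell and 10 of 11 B lineage markers fell. The mean log2 level of the granulocyte list ranged from 10.65 to 11.72 on the Myc TTP arrays and from 6.70 to 12.08 on the Myc arrays, against 11.75 to 13.59 on the TTP arrays and 12.41 to 13.24 on the wild-type arrays. The erythroid list ranged from 6.33 to 8.48 on the Myc TTP arrays and from 5.20 to 8.56 on the Myc arrays, against 8.15 to 10.67 on the TTP arrays and 8.56 to 9.65 on the wild-type arrays. The B lineage list ranged from 12.41 to 12.56 on the Myc TTP arrays and from 11.94 to 12.77 on the Myc arrays, against 12.59 to 13.37 on the TTP arrays and 12.90 to 13.53 on the wild-type arrays. For the monocyte, plasmacytoid dendritic and NK and T cell lists, group means were 6.75, 9.73 and 5.24 on the Myc TTP arrays and 6.30, 9.19 and 4.21 on the Myc arrays, against 8.62, 10.76 and 6.93 on the TTP arrays and 8.40, 11.24 and 6.80 on the wild-type arrays. Hba-a1, Vcan, Cd3e and Cd3g were below the floor on all arrays. The part of cell composition in the splicing factor differences was not tested.

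The arrays WT 3, TTP 3 and Myc 3 stood apart within their groups for the members called higher. Among the 19 members called higher, WT 3 was the highest wild-type array for 19, TTP 3 the highest TTP array for 18 and Myc 3 the lowest Myc array for 18, and WT 3 lay above Myc 3 for 15 (78.9%). Among all 1920 genes called higher the same orders held for 97.1%, 82.8%, 93.1% and 88.0%. Among all tested genes they held for 41.0%, 25.2%, 41.9% and 85.4%, so WT 3 lay above Myc 3 for most genes whatever their call. The array Myc TTP 3 had no one place in its group for these members. It was the highest Myc TTP array for Clns1a, Snrpb, Snrpf, Sf3a2, Sf3a3, Sf3b3, Srsf2, Hnrnpc and Hnrnpm. For Wdr77, Snrpd3, Snrpa1, Snrpb2 and Hnrnpab it was the lowest, and its place over all tested genes is not given. For no member were the 6 Myc-labelled arrays all above or all below the 6 others, which held for 0.758% (above) and 0.865% (below) of all tested genes. Set against TTP 1, TTP 2, WT 1 and WT 2 alone, the 6 Myc-labelled arrays were all above for 19 members (39.6%, against 15.1% of all tested genes) and all below for 2 (4.17%, against 25.6%).

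Without the arrays labelled WT 3 and TTP 3, 29 members were called for the Myc effect (61.1% of all tested genes in either direction), 24 of them higher (24.1% of all tested genes) and 5 lower (37% of all tested genes). All 20 members called with all arrays were among them, and 9 were added: Hnrnpa1, Hnrnpd, Snrpg, Srsf6 and Srsf9 as higher and Hnrnph3, Hnrnpk, Hnrnpul2 and Sf3b1 as lower. By family the rises were then 3 of 3 for the PRMT5 complex, 7 of 8 for Sm and snRNP genes, 6 of 9 for SF3, 3 of 9 for SR and 5 of 19 for hnRNP genes. Leaving out a single array gave 9 called members without WT 2, 10 without Myc 1 or TTP 1, 11 without Myc 2 or TTP 2, and 12 without WT 1. It gave 15 to 17 without a Myc TTP array, 20 without Myc 3 and 25 without TTP 3 or WT 3. Shares of all tested genes are not given for these single-array fits, so the counts show no trait of the members. Prmt5, Wdr77, Snrpd3, Snrpc, Sf3a1, Sf3a2, Sf3b4 and Srsf2 kept their call in all 12 such fits. Of the other called members, Sf3b3 and Snrpb kept it in 10, Hnrnpll in 9, Clns1a in 8, Sf3a3 in 7, Hnrnpc in 6, Snrpf in 5, Hnrnpab, Sf3b5 and Snrpa1 in 4, and Hnrnpm and Snrpb2 in 3. At an unadjusted p under 0.05 the Myc effect had 24 members (53.9% of all tested genes), and at an adjusted p under 0.01 limma called no gene at all.

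Prmt5 encodes the methyltransferase that makes symmetric dimethylarginine on Sm proteins. Prmt5 had a log2 intensity of 11.51, 11.35 and 11.41 on the Myc TTP arrays and 11.31, 11.29 and 10.64 on the Myc arrays, against 9.93, 10.07 and 10.90 on the TTP arrays and 9.79, 9.96 and 11.03 on the wild-type arrays. Both Myc-labelled groups lay above TTP 1, TTP 2, WT 1 and WT 2, while TTP 3 and WT 3 lay above Myc 3. The Myc effect was 0.97 ± 0.24 on the log2 scale (SE; 1.96-fold, adjusted p = 0.0169 in limma). It was 1.31 ± 0.14 (adjusted p = 0.000116) without the arrays labelled WT 3 and TTP 3, and 1.43 ± 0.13 for Myc over wild type and again 1.43 ± 0.13 for Myc TTP over TTP without the 4 arrays numbered 3.

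Wdr77 encodes the WD-repeat partner that PRMT5 needs for activity on Sm proteins. Wdr77 had a log2 intensity of 12.70, 12.65 and 12.43 on the Myc TTP arrays and 12.93, 12.49 and 12.28 on the Myc arrays, against 11.80, 11.93 and 12.23 on the TTP arrays and 11.43, 11.57 and 12.44 on the wild-type arrays. Here 5 of the 6 arrays without the Myc label lay below all Myc-labelled arrays, and only WT 3 overlapped them. Its Myc effect was 0.68 ± 0.18 (adjusted p = 0.0175), and 0.89 ± 0.12 without WT 3 and TTP 3 (adjusted p = 0.000328).

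Clns1a encodes pICln, the chaperone that presents Sm proteins to PRMT5. Clns1a had a log2 intensity of 13.65, 13.61 and 14.02 on the Myc TTP arrays and 13.70, 13.74 and 13.71 on the Myc arrays, against 13.14, 13.09 and 13.65 on the TTP arrays and 13.03, 13.12 and 13.60 on the wild-type arrays. The array TTP 3 overlapped the Myc-labelled arrays and the other 5 did not. The Myc effect of 0.47 ± 0.13 (adjusted p = 0.0200) had nearly the same size in either background, 0.46 ± 0.18 for Myc TTP over TTP and 0.47 ± 0.18 for Myc over wild type, and all 4 tested probe sets of the gene were positive.

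**Figure D2:**
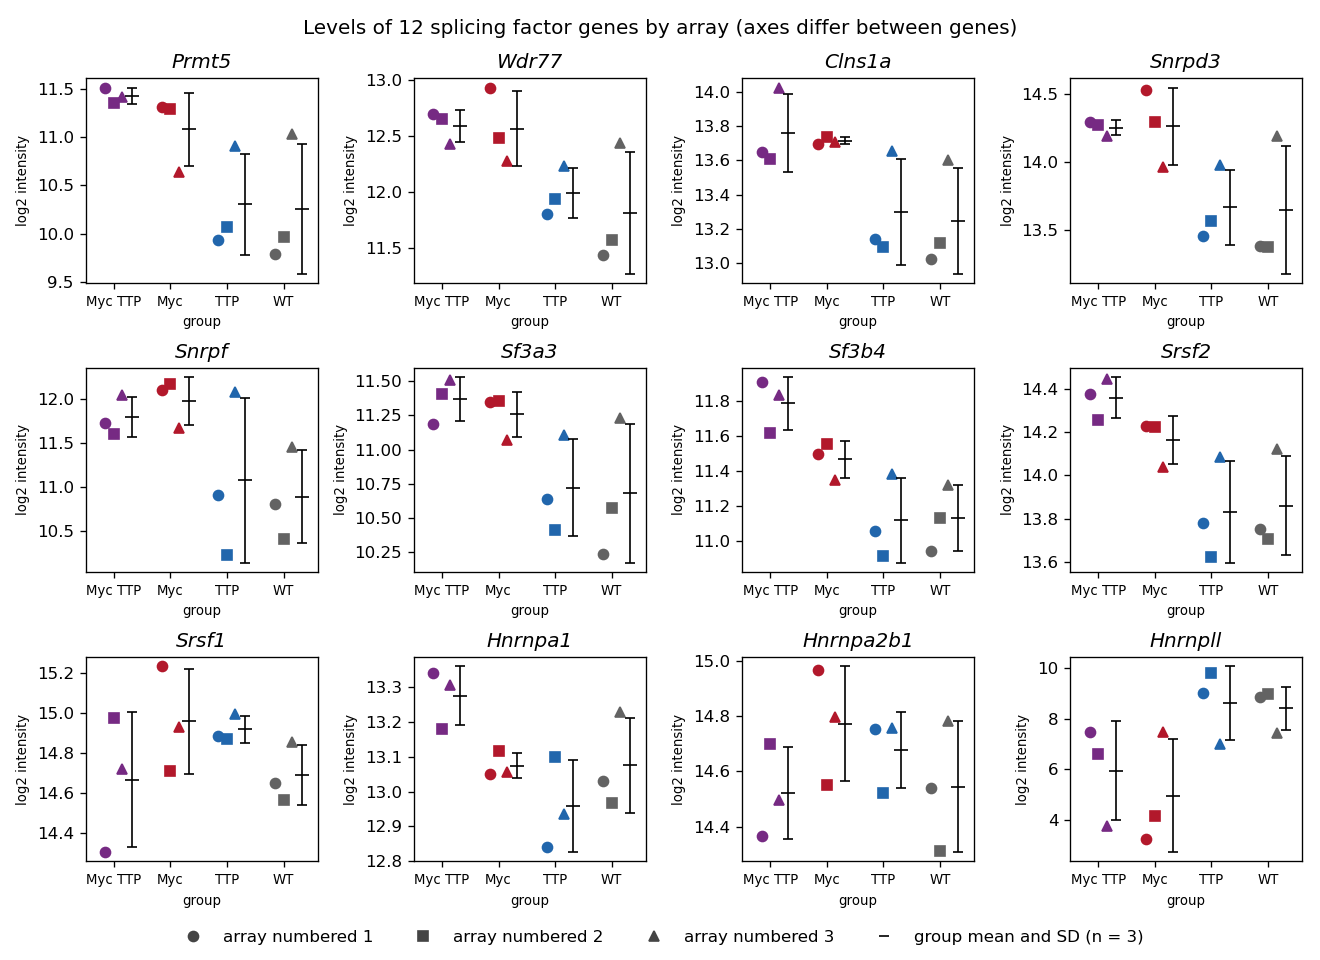
Log2 intensity of 12 splicing factor genes (vertical axes differ between genes) by group, with a symbol for the array number and the group mean with SD beside the points (n = 3). For Prmt5, Snrpd3, Sf3a3 and Srsf2 the circles and squares of the TTP and wild-type groups lie below all Myc TTP and Myc points and the triangles overlap them, Srsf1, Hnrnpa1 and Hnrnpa2b1 overlap between groups, and Hnrnpll runs the other way.

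The Sm ring and the proteins specific to U1 and U2 snRNPs came next. Snrpd3 encodes SmD3, a ring member and a PRMT5 substrate. Snrpd3 had a log2 intensity of 14.30, 14.28 and 14.19 on the Myc TTP arrays and 14.53, 14.30 and 13.97 on the Myc arrays, against 13.46, 13.57 and 13.98 on the TTP arrays and 13.39, 13.38 and 14.19 on the wild-type arrays. The TTP and wild-type arrays numbered 1 and 2 lay below every Myc-labelled array, and those numbered 3 did not. Over both backgrounds the difference was 0.60 ± 0.16 (adjusted p = 0.0175), and 0.81 ± 0.10 without WT 3 and TTP 3 (adjusted p = 0.000212).

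Snrpb encodes SmB, another substrate of PRMT5. Snrpb had a log2 intensity of 12.60, 12.69 and 12.73 on the Myc TTP arrays and 12.67, 12.64 and 12.28 on the Myc arrays, against 12.02, 11.90 and 12.43 on the TTP arrays and 11.88, 11.99 and 12.51 on the wild-type arrays. TTP 3 and WT 3 again overlapped the Myc-labelled arrays. In limma the effect was 0.48 ± 0.13 (adjusted p = 0.0190). Snrpc encodes a protein of the U1 snRNP, which pairs with the 5′ splice site. Snrpc had a log2 intensity of 12.58, 12.35 and 12.50 on the Myc TTP arrays and 12.16, 12.32 and 12.13 on the Myc arrays, against 11.92, 11.80 and 12.05 on the TTP arrays and 11.70, 11.74 and 12.33 on the wild-type arrays. Its Myc effect was 0.42 ± 0.11 (adjusted p = 0.0181), and WT 3 alone overlapped the Myc-labelled arrays.

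Snrpf, the SmF ring protein, had the largest difference of the Sm genes. Snrpf had a log2 intensity of 11.73, 11.61 and 12.04 on the Myc TTP arrays and 12.10, 12.17 and 11.67 on the Myc arrays, against 10.91, 10.23 and 12.08 on the TTP arrays and 10.80, 10.41 and 11.46 on the wild-type arrays. The TTP group held the widest spread, since TTP 3 lay among the Myc-labelled arrays and TTP 2 was the lowest of all 12. The Myc effect of 0.90 ± 0.29 (1.87-fold, adjusted p = 0.0285) became 1.30 ± 0.17 without WT 3 and TTP 3 (adjusted p = 0.000252), and the call was lost without Myc TTP 3, Myc 1, Myc 2, TTP 1, TTP 2, WT 1 or WT 2.

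Of the other ring genes, Snrpe (SmE, 0.05 ± 0.06, adjusted p = 0.566) and Snrpg (SmG, 0.19 ± 0.09, adjusted p = 0.122) were not called. The U2 snRNP genes Snrpa1 (0.41 ± 0.14, adjusted p = 0.0365) and Snrpb2 (0.23 ± 0.09, adjusted p = 0.0498) rose, Snrpb2 just inside the threshold. Snrpn, the imprinted SmN gene known from neurons, had log2 intensities of 2.29 to 2.55 over the 12 arrays, below the floor on each, and was not tested. Snrpd1, Snrpd2 and Snrpa were read only by probe sets annotated to several genes, so no value is given for them.

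The SF3A complex has 3 subunits, and all 3 rose. Sf3a2 and Sf3a1 had effects of nearly the same size. Sf3a2 had a log2 intensity of 12.73, 12.58 and 12.75 on the Myc TTP arrays and 12.44, 12.51 and 12.22 on the Myc arrays, against 11.92, 11.98 and 12.28 on the TTP arrays and 11.71, 12.002 and 12.38 on the wild-type arrays. Sf3a1 had a log2 intensity of 11.81, 11.64 and 11.73 on the Myc TTP arrays and 11.49, 11.47 and 11.25 on the Myc arrays, against 10.96, 10.94 and 11.32 on the TTP arrays and 10.91, 10.86 and 11.45 on the wild-type arrays. In both genes TTP 3 and WT 3 lay above Myc 3, and the other 4 arrays without the Myc label lay below all Myc-labelled arrays. The Myc effect was 0.49 ± 0.12 for each (adjusted p = 0.0169). The third subunit gene, Sf3a3, had the larger effect of 0.61 ± 0.17 (adjusted p = 0.0207), with 11.19 to 11.51 on the Myc TTP arrays and 11.07 to 11.36 on the Myc arrays, against 10.41 to 11.11 on the TTP arrays and 10.23 to 11.23 on the wild-type arrays.

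The SF3B complex was divided. Sf3b4, whose protein contacts the intron upstream of the branch site, had the smallest p of all members. Sf3b4 had a log2 intensity of 11.91, 11.62 and 11.83 on the Myc TTP arrays and 11.49, 11.55 and 11.35 on the Myc arrays, against 11.06, 10.91 and 11.38 on the TTP arrays and 10.94, 11.13 and 11.32 on the wild-type arrays. Only TTP 3 overlapped the Myc-labelled arrays, and the Myc effect was 0.50 ± 0.10 (adjusted p = 0.0169). Sf3b3, a scaffold subunit, rose by 0.47 ± 0.13 (adjusted p = 0.0185), and Sf3b5, a small subunit, by 0.29 ± 0.09 (adjusted p = 0.0291). Sf3b6, whose protein sits at the branch adenosine, was 0.10 ± 0.08 (adjusted p = 0.287) and Sf3b2 was 0.05 ± 0.09 (adjusted p = 0.686). The chosen probe set of Sf3b2 had the smallest difference of its 6 tested probe sets. All 6 were positive, up to 0.60, and none was called.

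Sf3b1 encodes the largest SF3B subunit, which cradles the branch site and is recurrently mutated in human blood cancers. Sf3b1 had a log2 intensity of 13.32, 13.10 and 13.23 on the Myc TTP arrays and 12.95, 13.16 and 13.21 on the Myc arrays, against 13.38, 13.46 and 13.12 on the TTP arrays and 13.53, 13.59 and 13.22 on the wild-type arrays. It stood at -0.22 ± 0.09 (adjusted p = 0.0672), the only negative difference among the 9 SF3 genes, and was not called with all arrays. Without WT 3 and TTP 3 it was called lower at -0.33 ± 0.07 (adjusted p = 0.00359), and 2 of its 4 tested probe sets were called lower with all arrays.

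**Figure D3:**
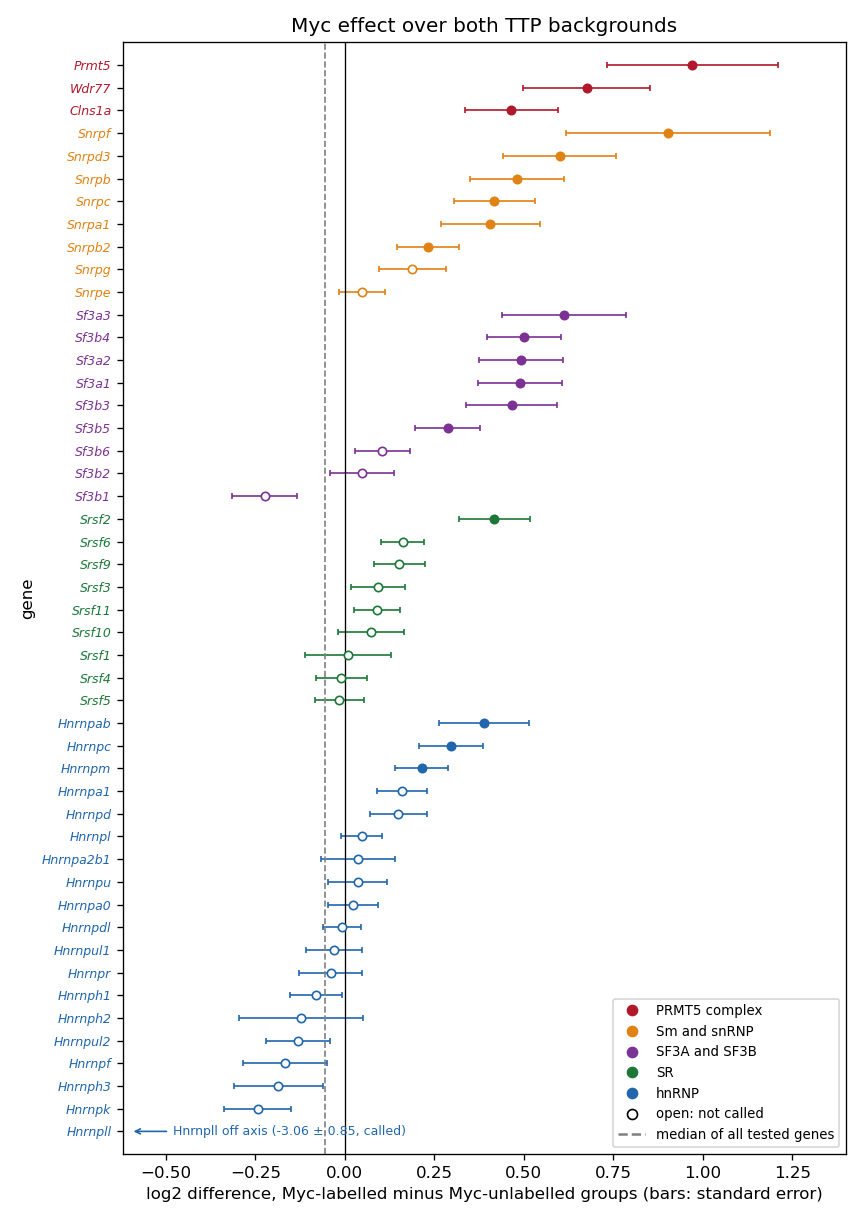
Log2 difference of the Myc effect for each of the 48 tested genes (points, with SE as bars), coloured by family, with filled points called at an adjusted p under 0.05; the dashed line is the median of all tested genes (-0.06). The 3 PRMT5 complex genes, 6 Sm and snRNP genes and 6 SF3 genes are filled to the right of 0, most SR and hnRNP points are open and near 0, and Hnrnpll lies off the axis at -3.06.

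Among the SR genes the rise of Srsf2 (SC35), which binds exons and is also mutated in human blood cancers, passed the test. Srsf2 had a log2 intensity of 14.38, 14.26 and 14.45 on the Myc TTP arrays and 14.23, 14.23 and 14.04 on the Myc arrays, against 13.78, 13.62 and 14.09 on the TTP arrays and 13.75, 13.71 and 14.12 on the wild-type arrays. TTP 3 and WT 3 lay just above Myc 3, and the other arrays of the 2 groups without the Myc label lay below all Myc-labelled ones. Over both backgrounds the difference was 0.42 ± 0.10 (1.34-fold, adjusted p = 0.0169), and all 4 tested probe sets of Srsf2 were positive.

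Srsf1 (SF2/ASF) is known as a direct MYC target in human and mouse cells. Srsf1 had a log2 intensity of 14.31, 14.98 and 14.72 on the Myc TTP arrays and 15.23, 14.71 and 14.93 on the Myc arrays, against 14.89, 14.87 and 14.997 on the TTP arrays and 14.65, 14.57 and 14.86 on the wild-type arrays. The groups overlapped in every direction, with the lowest array (Myc TTP 1) and the highest (Myc 1) both carrying the Myc label. Its Myc effect was 0.01 ± 0.12 (adjusted p = 0.955), and 0.07 ± 0.14 without WT 3 and TTP 3 (adjusted p = 0.675). By background it was -0.25 ± 0.17 for Myc TTP over TTP (adjusted p = 0.299) and 0.27 ± 0.17 for Myc over wild type (adjusted p = 0.247), and the difference between these, -0.52 ± 0.24, did not pass (adjusted p = 0.388). Of the 6 tested probe sets of Srsf1, all 6 were positive and 1 was called higher, and their differences ran to 0.37.

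Srsf6, whose protein binds exonic enhancers, was nearest to the threshold among the others. Srsf6 had a log2 intensity of 13.85, 13.75 and 13.89 on the Myc TTP arrays and 13.72, 13.57 and 13.60 on the Myc arrays, against 13.43, 13.57 and 13.58 on the TTP arrays and 13.59, 13.52 and 13.71 on the wild-type arrays. In limma the effect was 0.16 ± 0.06 (adjusted p = 0.0522), and 0.20 ± 0.06 without WT 3 and TTP 3 (adjusted p = 0.0205). Srsf9 had a log2 intensity of 12.28, 12.10 and 12.12 on the Myc TTP arrays and 12.07, 12.06 and 12.15 on the Myc arrays, against 11.76, 11.99 and 11.96 on the TTP arrays and 11.97, 12.01 and 12.18 on the wild-type arrays. Srsf9 was 0.15 ± 0.07 (adjusted p = 0.103), with WT 3 above 5 of the 6 Myc-labelled arrays. Srsf3, Srsf10 and Srsf11 lay between 0.07 and 0.09, and none passed.

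Srsf4 and Srsf5 differed from the other SR genes in sign, at -0.01 ± 0.07 and -0.02 ± 0.07 (adjusted p = 0.915 and 0.862). Srsf4 had a log2 intensity of 12.52, 12.21 and 12.47 on the Myc TTP arrays and 12.16, 11.99 and 12.12 on the Myc arrays, against 12.28, 12.19 and 12.17 on the TTP arrays and 12.35, 12.29 and 12.25 on the wild-type arrays. Srsf5 had a log2 intensity of 13.60, 13.35 and 13.64 on the Myc TTP arrays and 13.19, 13.37 and 13.26 on the Myc arrays, against 13.38, 13.48 and 13.31 on the TTP arrays and 13.52, 13.45 and 13.39 on the wild-type arrays. In both genes the Myc TTP arrays 1 and 3 were the highest of the 12. Srsf12 had log2 intensities of 2.89 to 3.37, below the floor on every array, and was not tested. The tested member nearest to the floor was Hnrnpll, above it on 10 of the 12 arrays.

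The hnRNP genes differed in sign, with 9 of 19 differences positive. With all arrays 4 of the 19 were called, beside 43.2% of all tested genes. Without WT 3 and TTP 3 the count was 9 (5 higher and 4 lower), beside 61.1% of all tested genes. The calls thus became more frequent over all tested genes as well. Hnrnpab, Hnrnpc and Hnrnpm were the 3 whose rise passed with all arrays. Hnrnpc encodes a protein that binds uridine tracts and keeps cryptic exons out of mRNA. Hnrnpc had a log2 intensity of 13.79, 13.81 and 14.05 on the Myc TTP arrays and 13.70, 13.86 and 13.67 on the Myc arrays, against 13.43, 13.47 and 13.75 on the TTP arrays and 13.27, 13.58 and 13.60 on the wild-type arrays. TTP 3 alone overlapped the Myc-labelled arrays, and the Myc effect was 0.30 ± 0.09 (adjusted p = 0.0243). Its call was lost without Myc TTP 3, Myc 1, Myc 2, TTP 1, TTP 2 or WT 1, where the difference was 0.24 to 0.31. Hnrnpab had a log2 intensity of 14.93, 15.01 and 14.78 on the Myc TTP arrays and 14.93, 14.65 and 14.36 on the Myc arrays, against 14.41, 14.23 and 14.49 on the TTP arrays and 14.21, 14.18 and 14.78 on the wild-type arrays. The Myc effect of Hnrnpab was 0.39 ± 0.13 (adjusted p = 0.0309), though TTP 1, TTP 3 and WT 3 lay above Myc 3. That call was lost without Myc TTP 1, Myc TTP 2, Myc 1, Myc 2, TTP 1, TTP 2, WT 1 or WT 2, with differences of 0.32 to 0.40. Hnrnpm had a log2 intensity of 12.96, 12.90 and 12.998 on the Myc TTP arrays and 12.87, 12.72 and 12.67 on the Myc arrays, against 12.71, 12.56 and 12.66 on the TTP arrays and 12.51, 12.56 and 12.83 on the wild-type arrays. Its Myc effect of 0.21 ± 0.07 (adjusted p = 0.0379) was the smallest of the called rises, and it was lost on leaving out any array other than Myc 3, TTP 3 or WT 3 (0.18 to 0.23).

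Hnrnpa1 and Hnrnpa2b1, whose proteins repress exons and are reported as MYC-linked regulators of Pkm splicing, were not called. Hnrnpa1 had a log2 intensity of 13.34, 13.18 and 13.31 on the Myc TTP arrays and 13.05, 13.12 and 13.06 on the Myc arrays, against 12.84, 13.10 and 12.93 on the TTP arrays and 13.03, 12.97 and 13.23 on the wild-type arrays. Its Myc effect was 0.16 ± 0.07 (adjusted p = 0.0861), made up of 0.32 ± 0.10 for Myc TTP over TTP and 0.00 ± 0.10 for Myc over wild type. All 3 tested probe sets of Hnrnpa1 were positive and none was called, and it has further probe sets annotated to several genes that were not used. Hnrnpa2b1 had a log2 intensity of 14.37, 14.70 and 14.50 on the Myc TTP arrays and 14.97, 14.55 and 14.80 on the Myc arrays, against 14.75, 14.52 and 14.76 on the TTP arrays and 14.54, 14.31 and 14.78 on the wild-type arrays. The groups overlapped throughout, and its Myc effect was 0.04 ± 0.10 (adjusted p = 0.791).

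Hnrnpk, a poly-cytosine binding protein, was just outside the threshold in the lower direction by its chosen probe set. Hnrnpk had a log2 intensity of 14.05, 14.21 and 13.80 on the Myc TTP arrays and 14.22, 14.03 and 14.04 on the Myc arrays, against 14.53, 14.45 and 14.15 on the TTP arrays and 14.25, 14.08 and 14.35 on the wild-type arrays. The Myc effect was -0.24 ± 0.09 (adjusted p = 0.0544), and -0.27 ± 0.09 without WT 3 and TTP 3, where it was called lower (adjusted p = 0.0234). None of the 3 tested probe sets of Hnrnpk was called with all arrays. Their differences ran from -0.24 to 0.03, and the one at 0.03 was nearly as bright as the chosen one (mean 14.15 against 14.18). Hnrnph3 had a log2 intensity of 12.02, 11.78 and 11.60 on the Myc TTP arrays and 11.57, 11.43 and 11.60 on the Myc arrays, against 11.94, 11.88 and 11.30 on the TTP arrays and 12.12, 12.07 and 11.81 on the wild-type arrays. Hnrnph3 was -0.19 ± 0.12 (adjusted p = 0.235), and -0.34 ± 0.09 without these 2 arrays (adjusted p = 0.00892). TTP 3 was the lowest array for Hnrnph3, against the sign of the difference.

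Hnrnpll stood apart from every other member in the size of its difference. Its protein is known in T cells for skipping variable exons of the CD45 gene, Ptprc. Hnrnpll had a log2 intensity of 7.49, 6.59 and 3.76 on the Myc TTP arrays and 3.26, 4.16 and 7.48 on the Myc arrays, against 9.03, 9.82 and 6.99 on the TTP arrays and 8.85, 8.96 and 7.44 on the wild-type arrays. TTP 1, TTP 2, WT 1 and WT 2 lay above all Myc-labelled arrays, and Myc TTP 3 and Myc 1 were below the floor of 4. Over both backgrounds the fitted difference was -3.06 ± 0.85 on the log2 scale (adjusted p = 0.0195). With the 2 values under the floor set to 4 it was -2.89, or 7.44-fold lower. This is no lower limit, since leaving out 1 array gave fitted differences from -3.68 to -2.51. Both tested probe sets of Hnrnpll were called lower, the second at -2.42. The call was lost without Myc 1, Myc 2 or WT 2.

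Within the Myc group Hnrnpll was highest on Myc 3, where all 6 marker lists were also highest. The B lineage list averaged 12.77 there, against 11.94 on Myc 1 and 12.08 on Myc 2, and the granulocyte list 12.08, against 6.70 on Myc 1 and 8.07 on Myc 2. Within the Myc TTP group it was highest on Myc TTP 1, again the array where all 6 marker lists were highest (B lineage 12.56, granulocyte 11.72). The members called higher ran the other way, with Myc 3 the lowest Myc array for 18 of 19. That order held for 93.1% of all genes called higher and 41.9% of all tested genes. The share of all tested genes highest on Myc 3 is not given, so the order is not shown to be a trait of Hnrnpll. The part of cell composition in the Hnrnpll signal was not tested. Ptprc itself fell for the Myc effect by 0.71 on the log2 scale (SE 0.18, adjusted p = 0.0169). Probe sets of this 3′-biased array do not report exon use, so splicing itself was not measured.

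Each background on its own gave no called member with all arrays. For Myc over wild type limma called 11% of all tested genes, 0.467% as higher and 10.6% as lower, and none of the 48 members. At an unadjusted p under 0.05 there were 10 members (41% of all tested genes). Wdr77 (0.75 ± 0.25, adjusted p = 0.0632) and Hnrnpll (-3.45 ± 1.20, adjusted p = 0.0673) had the smallest p. In the comparison of Myc TTP with TTP, 0% of all tested genes were called, while 25 members had an unadjusted p under 0.05 (36% of all tested genes), led by Sf3b4 (0.67 ± 0.15) and Sf3a1 (0.65 ± 0.17), both at an adjusted p of 0.0607. The unmoderated linear model called no member in either comparison.

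Without WT 3 and TTP 3 both backgrounds gave calls. For Myc TTP over TTP 24 members were called (42.9% of all tested genes), 22 higher (21%) and 2 lower (21.9%). For Myc over wild type 18 members were called (48.3% of all tested genes), 15 higher (14%) and 3 lower (34.3%). Leaving out 1 array, Myc TTP over TTP had 18 called members without WT 3 and 17 without TTP 3. Myc over wild type had 17 without WT 3, 7 without TTP 3, 3 without Myc 3 and 1 without TTP 2. These single-array counts lack the share of all tested genes and show no trait of the members. In the fit without both WT 3 and TTP 3, Prmt5 was 1.42 ± 0.19 for Myc TTP over TTP (adjusted p = 0.00135). It was 1.21 ± 0.19 for Myc over wild type (adjusted p = 0.00209). Without all 4 arrays numbered 3 the counts were 24 for Myc TTP over TTP (45.5% of all tested genes), 22 for Myc over wild type (54.7%) and 26 for the Myc effect (63.1%).

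In direction, 29 of the 48 differences were positive in both backgrounds with all arrays (60.4%, against 31.9% of all tested genes) and 4 were negative in both (8.33%, against 40.4%), which leaves 15 that differed in sign. Those positive in both were 3 of 3 for the PRMT5 complex, 8 of 8 for Sm and snRNP, 8 of 9 for SF3, 6 of 9 for SR and 4 of 19 for hnRNP genes, and among the hnRNP genes 12 differed in sign between the backgrounds. Family medians were 0.60 for Myc TTP over TTP and 0.75 for Myc over wild type in the PRMT5 complex. In the Sm and snRNP genes they were 0.52 for Myc TTP over TTP and 0.30 for Myc over wild type, and in the SF3 genes 0.62 for Myc TTP over TTP and 0.29 for Myc over wild type. The medians over all tested genes also differed, at 0.09 for Myc TTP over TTP and -0.21 for Myc over wild type. With the arrays set to a common median the Sm and snRNP medians were 0.46 for Myc TTP over TTP and 0.56 for Myc over wild type, and the SF3 medians 0.56 for Myc TTP over TTP and 0.55 for Myc over wild type, so no order of the backgrounds is given. For Myc over wild type the Sm and snRNP median was 0.18 without WT 2 and 0.51 without WT 3, and the SF3 median 0.14 without WT 1.

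With all arrays the TTP transgene was not accompanied by a called difference in any member. For TTP over wild type 0% of all tested genes were called by limma and no member had an unadjusted p under 0.05 (1.45% of all tested genes). The smallest p belonged to Hnrnpf and Hnrnph3, at 0.29 ± 0.17 and -0.29 ± 0.18 (adjusted p = 1.00 for both). Hnrnpf had a log2 intensity of 13.46, 14.25 and 14.03 on the Myc TTP arrays and 14.14, 14.04 and 14.07 on the Myc arrays, against 14.32, 14.33 and 14.27 on the TTP arrays and 14.04, 14.17 and 13.85 on the wild-type arrays. By the chosen probe set the 3 TTP arrays of Hnrnpf lay above the 3 wild-type arrays, and the difference did not pass. In 2 other probe sets of the gene the TTP means were 13.32 and 12.67, against wild-type means of 13.29 and 12.75. In the remaining one they were 11.33 for TTP and 10.97 for wild type.

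For Myc TTP over Myc limma again called 0% of all tested genes, with 4 members at an unadjusted p under 0.05 (19.1% of all tested genes): Srsf4, Srsf5, Srsf6 and Sf3b5. Srsf4 was 0.31 ± 0.10 (adjusted p = 0.181) and Srsf5 0.25 ± 0.10 (adjusted p = 0.221). The median over all tested genes in this comparison was 0.27, above the members' median of 0.13. When the arrays were set to a common median the members' median became -0.13, so no direction is given for the families here.

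For the difference between the backgrounds (the interaction), 0% of all tested genes were called and 7 members had an unadjusted p under 0.05 (13.1% of all tested genes). Srsf4 (0.39 ± 0.14) and Hnrnpl (0.31 ± 0.12), both at an adjusted p of 0.359, had the smallest p. Hnrnpl had a log2 intensity of 13.71, 13.61 and 13.77 on the Myc TTP arrays and 13.45, 13.56 and 13.55 on the Myc arrays, against 13.54, 13.44 and 13.51 on the TTP arrays and 13.57, 13.58 and 13.73 on the wild-type arrays. Without the 4 arrays numbered 3, Hnrnpll was the one member called for Myc TTP over Myc (adjusted p = 0.00117 in limma). There 14.1% of all tested genes were called higher. Hnrnpll was 7.79-fold higher with Myc 1 set to the floor. It was also the one member called for the interaction (adjusted p = 0.0391; 2.2% of all tested genes were called higher). That fit leaves 2 arrays in each group. With all arrays Hnrnpll was 0.98 ± 1.20 on the log2 scale for Myc TTP over Myc (adjusted p = 0.631) and 0.79 ± 1.70 for the interaction (adjusted p = 0.818).

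The calls were also counted over all probe sets of the members. Of the 147 member probe sets, 138 were tested on their own among 22245, and 39 were called higher for the Myc effect (28.3%, against 14.1% of all probe sets) and 4 lower (2.9%, against 18.1%). Called higher were 7 of 8 in the PRMT5 complex, 9 of 16 in Sm and snRNP genes, 10 of 27 in SF3, 5 of 31 in SR (16.1%) and 8 of 56 in hnRNP genes (14.3%). At least one probe set was called higher in 4 of 9 SR genes and 5 of 19 hnRNP genes, beside 1 and 3 by the chosen probe set. The share of all genes with such a probe set is not given, and several probe sets give a gene more chances of a call. These gene counts therefore show no trait of the families. In all 19 genes called higher every tested probe set was positive. No gene had probe sets called in both directions. Of the genes not called, 6 had at least one called probe set. For Hnrnpf the chosen probe set was -0.17 and not called, while 2 others of its 4 were called higher, and for Sf3b1 the called probe sets were lower. Srsf1, Srsf6, Srsf10 and Hnrnpu each had 1 probe set called higher.

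Further genes of splicing, from lists of their complexes, are given as counts beside the background of 18.7% higher and 24.6% lower. Of the U1, U2, U5 and minor snRNP proteins 9 of 21 rose and none fell (median 0.23). Among the rises were Snrnp70 of the U1 snRNP (0.64 ± 0.12, adjusted p = 0.0169) and Phf5a (0.50 ± 0.10, adjusted p = 0.0169). Phf5a encodes a subunit of SF3B and is not a member only because of its symbol. Of the Lsm proteins, which form rings like those of the Sm proteins, 7 of 12 rose (median 0.38), with Lsm6 at 0.61 ± 0.13 and Lsm3 at 0.50 ± 0.11. Of the SMN complex and snRNP import genes 8 of 12 rose (median 0.54). They included Snupn, the import adaptor of snRNPs (0.70 ± 0.12), and Ddx20, a helicase of the SMN complex (0.57 ± 0.12), both at an adjusted p of 0.0169. Gemin5, which recognises small nuclear RNAs, had the largest difference of that list (1.41 ± 0.36, adjusted p = 0.0170).

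The remaining lists of splicing steps are set beside the same 18.7% of all tested genes called higher and 24.6% called lower. For recognition of the 3′ splice site 2 of 7 genes rose, which is near that share for so short a list. They were the U2AF subunits U2af1 (0.47 ± 0.11) and U2af2 (0.39 ± 0.11). Of the Prp19 complex and catalytic step factors 9 of 31 rose (median 0.15), led by Ppie (0.72 ± 0.18) and Isy1 (0.62 ± 0.16). Of the exon junction complex list, which includes the cap-binding proteins, 5 of 9 rose, with Ncbp1 at 0.60 ± 0.14 and Rbm8a at 0.45 ± 0.13. None of these 3 lists held a called fall.

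Other arginine methyltransferases rose as Prmt5 did, in 5 of 7 genes (median 0.69), with Prmt3 at 0.69 ± 0.15 and Prmt6 at 0.71 ± 0.16 (adjusted p = 0.0169 for both). The kinases and phosphatases of SR proteins went the other way: 1 of 9 rose and 5 fell (median -0.27). Srpk1, a main kinase of SR proteins, rose by 0.80 ± 0.16 (adjusted p = 0.0169). Srpk3 (-2.35 ± 0.40, adjusted p = 0.0169) and Clk1 (-0.81 ± 0.22, adjusted p = 0.0181), kinases of the SRPK and CLK families, fell. Among 40 other splicing regulators 9 rose and 6 fell (median -0.03), beside 18.7% and 24.6% of all tested genes. Luc7l (0.48 ± 0.12) and Ptbp1 (0.37 ± 0.11), a repressor of exons, rose, and the muscleblind genes Mbnl1 (-0.43 ± 0.11) and Mbnl2 (-0.73 ± 0.20) fell.

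**Figure D4:**
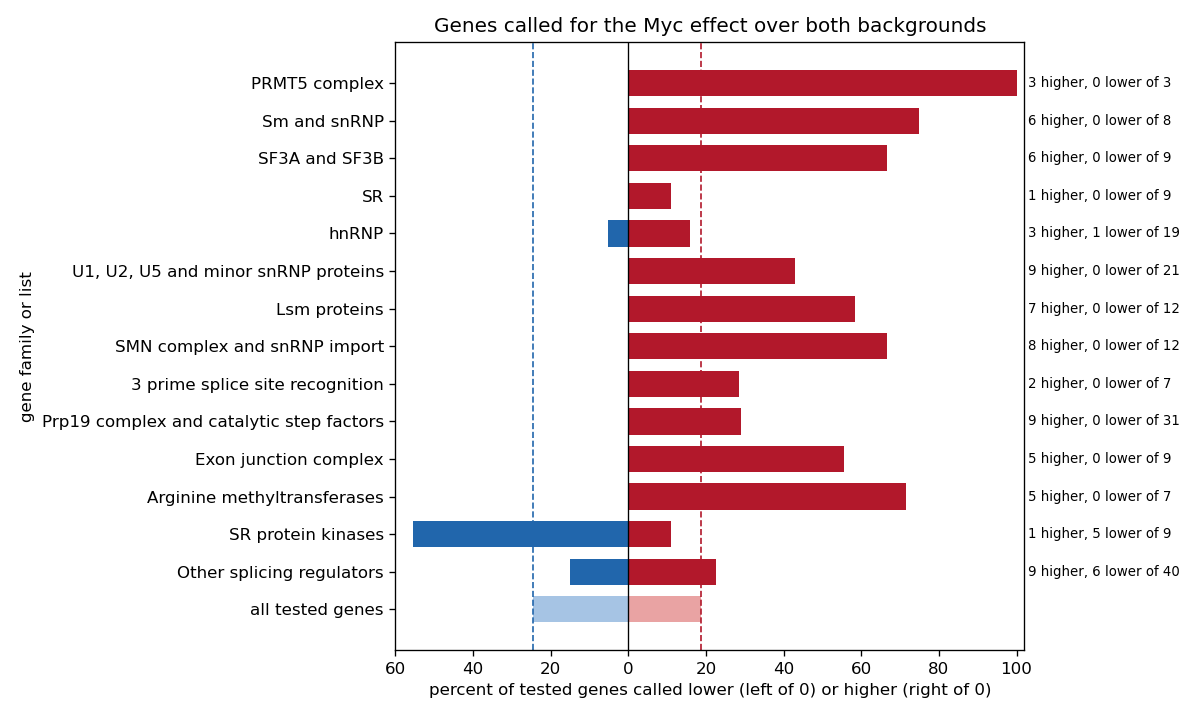
Percent of the tested genes of each family or list called higher (right of 0) or lower (left of 0) for the Myc effect, with counts at the right; dashed lines and pale bars give all tested genes (18.7% higher, 24.6% lower). The PRMT5 complex, Sm and snRNP, SF3, SMN complex and methyltransferase bars reach furthest to the right, the SR and hnRNP bars end short of the dashed line, and the SR protein kinases reach furthest to the left.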

How the data were processed

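Total RNA from 12 samples of B220-selected bone marrow cells was hybridised to Affymetrix MOE430 2.0 arrays, 1 array a sample and 3 a group. The authors deposited 1 value per probe set and array, a GCRMA summary (no version stated) per the submitters' processing notes. The deposited values are intensity on a linear scale, from 1.73 to 120125. GCRMA corrects background, normalizes between arrays and summarises probes, so a change in total RNA per cell cannot be seen. Further steps of theirs: not given in the sources used here. The number of arrays limits the precision.

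Values were taken as log2 with no pseudocount. Of 45101 probe sets 34958 had a single gene symbol, 932 several and 9211 none; 34754 were found by Entrez identifier in RefSeq GRCm38.p6, which updated symbols. A gene was its probe set with the highest mean, tested when above log2 4 (intensity 16) on 3 or more arrays, which left out 7907. Differences were fitted with limma 3.58.1 in R 4.3.3 (lmFit, eBayes with an intensity trend, 4 group means, 8 residual degrees of freedom, two-sided tests). The fit was run on simulated data drawn independently for each array, which does not test shifts shared between arrays. All p-values for genes are from the limma fit. Errors beside differences are SE.

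The members, gene lists and the left-out arrays were chosen with earlier results of these data known. Array values are given for the PRMT5 complex, Srsf1, Hnrnpa1, Hnrnpa2b1 and Snrpn, the 3 members of each family with the smallest p in each direction and the 2 with the smallest p in each other contrast. Those of Snrpf and Sf3a3 were added for the size of their differences, and Gemin5 and Ptprc are named after their values were seen. The other lists are represented by 2 members for each direction, those of smallest p. Same-numbered arrays of TTP and wild type had residuals correlated at 0.498, 0.664 and 0.821, but other pairs of groups did not all exceed 0.1 (Myc with wild type -0.433, -0.281 and -0.630), and the labels give the numbers no meaning, so they were not taken as pairs. Alternatives varied the filter, normalization, probe set, variance model, threshold, block and arrays.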

Additional observations from a re-analysis of the deposited data

How the results depend on the processing

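The count of 20 members called for the Myc effect was 0 at an adjusted p under 0.01, and leaving out 1 array at a time gave 9 to 25. For Myc TTP over TTP the same gave 0 to 18 members and for Myc over wild type 0 to 17, where the full set gave 0. These ranges are for members alone, without the share of all tested genes. Without WT 3 and TTP 3 the counts were 24 for Myc TTP over TTP and 18 for Myc over wild type. Without the 4 arrays numbered 3 they were 24 and 22, with 1 for Myc TTP over Myc and 1 for the interaction. The cause was not tested. With the replicate number as a block 18 members were called for the Myc effect (Hnrnpm and Snrpb2 were lost), and no member in the other contrasts, as without the block. Quantile normalization and a common array median kept all 20 calls and added 3 and 4. A common median moved the all-gene median of the Myc effect to 0.04, beside -0.06, and the hnRNP family median to 0.09, beside -0.01. No filter kept 17 of the 20, the probe set with the largest SD 16 of 19, the mean of all probe sets 19, no intensity trend 18 and the unmoderated model 16. The counts for the block, normalization, filter, probe set and model settings are also for members alone, without the share of all tested genes. No called member changed its direction under any of these settings. Values near the floor, such as those of Hnrnpll on Myc TTP 3 and Myc 1, give only a bound on a level.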
